A study of Mus musculus with 12 samples.

Results

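Both of the lesions combined in this study bear on the wall of the ascending aorta, and the expression profile described here is that of aortas with both against aortas with neither. The 3 arrays with both lesions, called mutant knockouts below, came from mice heterozygous for Fbn1C1039G, a missense allele of fibrillin-1 used as a model of Marfan syndrome, in which Tgfbr2 was also disrupted. The 3 arrays with neither lesion, called wild-type controls, came from mice with wild-type Fbn1 and intact Tgfbr2. These 6 arrays were chosen by their titles from the 12 of the series. The other 6 carried 1 lesion each, 3 with Tgfbr2 disruption and wild-type Fbn1 (wild-type knockouts) and 3 with the Fbn1 allele and intact Tgfbr2 (mutant controls), and they are used to place each difference.

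All 4 groups carried Myh11-CreERT2, a Cre recombinase driven by the smooth muscle myosin promoter and switched on by tamoxifen, and Tgfbr2f/f, a Tgfbr2 gene that this Cre can cut. Knockout groups received 1 mg of tamoxifen by intraperitoneal injection for 5 days from 4 weeks of age, and control groups received corn oil, so Tgfbr2 disruption and tamoxifen cannot be told apart. The mice were killed at 6 weeks of age. Because the Cre acts in smooth muscle cells, the other cells of the wall keep their receptor. Whether each array stands for a mouse of its own is not in the labels, and p-values here weigh differences only against the spread among arrays of 1 group, which may be technical. In such bulk tissue, fewer cells of a type and less RNA per cell cannot be told apart.

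TGF-beta ligands are secreted in a latent complex whose binding proteins attach to fibrillin microfibrils. Once released, a ligand joins the type II receptor, encoded by Tgfbr2, to a type I receptor that phosphorylates SMAD proteins, which enter the nucleus and act on target genes for matrix, contractile and feedback proteins. Fibrillin-1 also forms the scaffold of elastic fibres, and its mutation weakens the wall of the ascending aorta, the segment that dilates in Marfan syndrome.

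Levels are log2 of the deposited intensity of 1 probe set per gene. Differences are log2 differences of group means with their standard error (SE) from limma over all 12 arrays, 3 a group. A gene is called, and said to rise or fall, where limma's p-value adjusted by Benjamini and Hochberg over all 14944 genes tested is under 0.05. Median intensity lay between 301 and 334 on all arrays, and log2 values of 2 arrays correlated at 0.997 to 0.998 within groups and at 0.992 to 0.997 across groups.

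Tgfbr2, the disrupted gene, measured 11.96, 11.96 and 11.94 in the wild-type controls and 12.05, 12.07 and 11.98 in the mutant knockouts. All 3 mutant knockouts lay above the controls, by 0.08 on average, and the exact permutation test (two-sided) gave p = 0.1, the smallest that 20 assignments of 6 arrays allow. The gene has 1 probe set, and its place relative to the part that Cre removes was not analysed here, so this level does not check the labels. No probe set names Fbn1 alone, and Fbn1 was not analysed here.

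The tissue was checked by markers that define its cells. None of 6 smooth muscle markers (Myh11, Acta2, Tagln, Cnn1, Smtn, Lmod1) was called by limma or had an unadjusted p under 0.05, and their summed intensity was 91471 to 91956 in wild-type controls and 91211 to 92450 in mutant knockouts. Acta2, Myh11 and Cnn1 stood at percentiles 99.985, 99.89 and 99.88 of mean level. Whether differences are compressed so near the top of the scale was not tested. Of 6 macrophage markers 5 rose, with a sum of 3870 to 4634 in wild-type controls, 8070 to 8921 in wild-type knockouts and 6119 to 6597 in mutant knockouts. Of 5 cardiac muscle markers 4 rose, from a sum of 6697 to 8038 to one of 11564 to 13734. Tnnt2 weighs most in this sum, with a mean level of 12.36 in wild-type controls against 10.01 or less for the others. Of 6 endothelial markers 4 rose, with sums of 10791 to 12302 and 12246 to 14736. None of the 4 adipocyte markers tested was called by limma or had an unadjusted p under 0.05, and the sums over these and 1 dimmer marker overlapped, at 1839 to 2647 and 1906 to 3365. Of 3 skeletal muscle markers tested 2 rose (Acta1 and Ckm) and all 3 stood higher at an unadjusted p under 0.05. Ckm lost its call without any 1 of the mutant knockouts numbered 1 and 2 and the wild-type controls numbered 2 and 3, at an adjusted p of up to 0.0967. With 1 dimmer marker their sum was 2074 to 2175 in wild-type controls, 2198 to 2325 in the wild-type knockouts, 1978 to 2191 in mutant controls and 2427 to 2563 in mutant knockouts, the highest group without overlap. Of 6 fibroblast markers 1 rose, with sums of 41767 to 46659 and 43992 to 48783. None of the lymphocyte, Schwann cell, erythroid and mast cell markers tested was called by limma, and 1 erythroid marker had an unadjusted p under 0.05.

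Some of the genes described below work together in cell division, and their promoters show letters that the array values do not. In the 250 bases before the start site, CCAAT, the letters bound by the factor NF-Y, stood on either strand in 18 of 25 genes of the mitosis list with a promoter entry (72.0%), against 38.9% of the 11792 genes tested that have one and 33.8% of all 32851 promoters. TTTGAA or TTCGAA, the core of the element through which cell cycle genes are held silent outside division, stood in 11 of the 25 (44.0%), against 14.7% and 17.1%. Both kinds stood together in 10 of the 25 (40.0%), against 5.46% and 6.02%. A CCAAT on the other strand reads ATTGG. TGACGTCA, the site of CREB, stood in 3 of 30 immediate early genes (10%), against 2.76% and 1.55%, and GTCTAGAC, a SMAD element, in none of 16 TGF-beta induced targets, against 0.271% and 0.167%. These matches are letters only and are not shown to be bound in these aortas. The 3 sequences chosen to show this, from RefSeq on GRCm38.p6, are those of a mitotic cyclin that rose (Ccnb2, chr9:70421555-70421804, minus strand), of the centromeric histone that rose (Cenpa, chr5:30666636-30666885, plus strand) and of the single mitosis gene that fell (Anln, chr9:22389207-22389456, minus strand), with both kinds of motif in capitals.
Ccnb2: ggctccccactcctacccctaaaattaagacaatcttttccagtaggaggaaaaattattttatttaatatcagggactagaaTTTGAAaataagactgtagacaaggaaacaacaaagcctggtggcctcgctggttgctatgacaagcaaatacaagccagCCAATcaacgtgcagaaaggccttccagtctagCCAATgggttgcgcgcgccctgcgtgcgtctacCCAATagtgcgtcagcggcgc
Cenpa: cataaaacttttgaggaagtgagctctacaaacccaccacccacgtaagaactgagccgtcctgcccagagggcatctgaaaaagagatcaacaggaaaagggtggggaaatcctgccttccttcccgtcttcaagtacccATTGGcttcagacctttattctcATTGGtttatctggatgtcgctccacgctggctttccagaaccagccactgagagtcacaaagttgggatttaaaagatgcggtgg
Anln: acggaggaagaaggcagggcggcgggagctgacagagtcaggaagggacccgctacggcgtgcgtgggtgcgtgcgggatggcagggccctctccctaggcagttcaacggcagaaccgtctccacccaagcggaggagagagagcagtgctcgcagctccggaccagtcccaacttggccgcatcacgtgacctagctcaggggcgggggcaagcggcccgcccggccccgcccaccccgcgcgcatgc
The Ccnb2 promoter holds 3 CCAAT and 1 TTTGAA, that of Cenpa 2 CCAAT as ATTGG, and that of Anln neither kind. Other mitosis genes with a promoter entry also lacked CCAAT or the second kind, and all of them rose.

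Both lesions together moved a large share of the measured genes by small amounts. Of 14944 genes tested, 3479 (23.3%) were called between mutant knockouts and wild-type controls, 1702 higher (11.4%) and 1777 lower (11.9%). Differences were mostly modest: the called increases had a median of 0.31 and the called decreases one of 0.28 in size, while 46 genes rose and 43 fell at least 2-fold. The 2 groups of arrays did not overlap in 5681 genes (38.0%), whether called or not. With each array centred on its median, 1165 rose and 2579 fell, so the balance of directions depends on the scaling. Without the mutant knockout numbered 1, 2299 genes were called. The single lesions, each against the same 3 wild-type controls, gave 2814 called genes (18.8%) for the wild-type knockouts, 1370 higher (9.17%) and 1444 lower (9.66%), and 970 (6.49%) for the mutant controls, 473 higher (3.17%) and 497 lower (3.33%). Without the wild-type knockouts numbered 1 and 3 the first became 1874 and 1836, and the second became 532 and 349 without the mutant controls numbered 1 and 2 and 479 and 554 without the wild-type controls numbered 2 and 3. Over the 1702 increases the median difference was 0.22 in wild-type knockouts and 0.14 in mutant controls, and over the 1777 decreases it was -0.20 and -0.12.

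**Figure D1:**
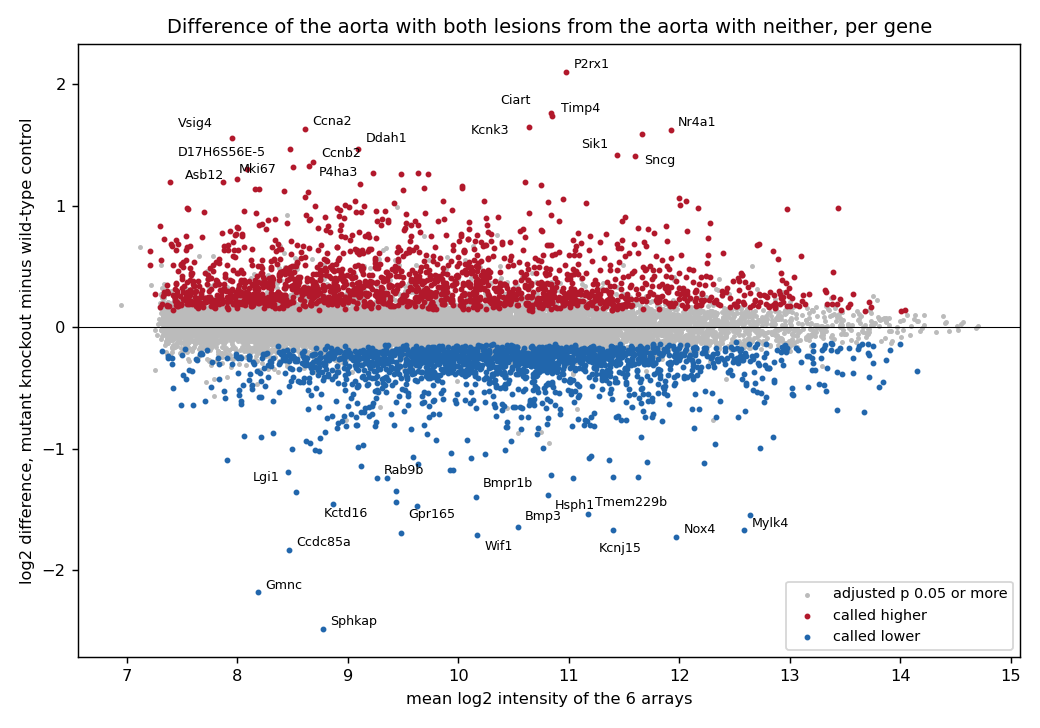
Log2 difference of the mutant knockouts from the wild-type controls (vertical axis) against the mean log2 intensity of these 6 arrays (horizontal axis), 1 point per gene of 14944. Red points are the 1702 genes called higher, blue points the 1777 called lower, and the 15 largest called differences without overlap in each direction are named, from P2rx1 at 2.10 to Sphkap at -2.48.

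The largest increase was in P2rx1, the ATP-gated cation channel by which sympathetic nerves contract arteries. Its level was 9.71, 10.03 and 10.05 in wild-type controls, 10.81, 10.67 and 10.87 in the wild-type knockouts, 11.08, 11.12 and 10.73 in mutant controls and 12.23, 12.03 and 11.82 in mutant knockouts. Each single lesion raised it and both raised it further, with no array of a lesion-bearing group as low as a wild-type control and no array of another group as high as a mutant knockout. The difference of both lesions was 2.10 ± 0.13 (SE; limma adjusted p = 8.36e-07), against 0.85 for Tgfbr2 disruption and 1.05 for the Fbn1 allele alone. Timp4, an inhibitor of matrix metalloproteinases, measured 10.26, 10.11 and 9.57 in wild-type controls and 11.68, 11.64 and 11.84 in mutant knockouts, with 10.53, 10.34 and 10.42 and 10.42, 10.25 and 10.73 in the wild-type knockouts and mutant controls. Only the mutant knockouts stood clear of all other groups, 1.74 ± 0.15 above the wild-type controls (adjusted p = 1.66e-05).

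Kcnk3 encodes TASK-1, a background potassium channel that sets the resting potential of vascular smooth muscle. It measured 9.72, 9.87 and 9.84 in wild-type controls, 10.32, 10.30 and 10.29 in the wild-type knockouts, 10.15, 10.34 and 10.18 in mutant controls and 11.60, 11.64 and 11.13 in mutant knockouts. The 3 mutant knockouts lay above every other array, and the difference from the wild-type controls was 1.64 ± 0.11 (limma adjusted p = 1.71e-06). Sncg, gamma-synuclein, rose by 1.40 ± 0.10, from 10.64, 11.17 and 10.88 to 12.29, 12.19 and 12.42, and Sik1, a salt-inducible kinase, by 1.42 ± 0.21, from 10.91, 10.92 and 10.35 to 12.57, 11.91 and 11.95. In neither gene did the groups overlap. Ddah1, which breaks down an endogenous inhibitor of nitric oxide synthase, rose by 1.46 ± 0.25, with 2.20 in the wild-type knockouts and 0.17 (not called) in the mutant controls. P4ha3, a collagen prolyl hydroxylase, rose by 1.33, and the ankyrin repeat gene Asb12 by 1.30. Vsig4, a complement receptor of resident macrophages, rose by 1.55 ± 0.28, and D17H6S56E-5 by 1.47. The other large increases, Ciart, Ccna2, Ccnb2, Mki67 and Nr4a1, belong to groups described below.

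The largest decrease was in Sphkap, an anchoring protein for protein kinase A that binds sphingosine kinase. Its level was 10.12, 10.71 and 9.23 in wild-type controls, 8.81, 9.04 and 8.26 in the wild-type knockouts, 10.11, 9.96 and 9.80 in mutant controls and 7.67, 7.12 and 7.81 in mutant knockouts. Both knockout groups lay below both control groups, and the mutant knockouts lay lowest. The difference was -2.48 ± 0.31 (limma adjusted p = 1.60e-04), against -1.32 with Tgfbr2 disruption and -0.07 (not called) with the Fbn1 allele alone. A similar pattern held for Mylk4, a kinase of the myosin light chain kinase family, at 13.43, 13.41 and 13.43 in wild-type controls, 12.14, 12.20 and 12.01 in the wild-type knockouts, 13.37, 13.22 and 13.24 in mutant controls and 11.72, 11.60 and 11.94 in mutant knockouts. Both knockout groups lay well below both control groups, and the difference was -1.67 ± 0.08 with both lesions, -1.31 with Tgfbr2 disruption and -0.15 (not called) with the Fbn1 allele.

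A second kind of decrease was stepwise, with each lesion lowering the gene and both lowering it most. Gmnc, a regulator of centriole formation in multiciliated cells, measured 9.31, 9.45 and 9.08 in wild-type controls, 8.16, 8.33 and 8.16 in the wild-type knockouts, 7.73, 8.38 and 8.48 in mutant controls and 6.93, 7.09 and 7.27 in mutant knockouts. The 2 single-lesion groups lay between the other groups without overlapping either, and the difference of both lesions was -2.18 ± 0.16. Bmpr1b, a type I receptor for bone morphogenetic proteins, followed the same order, at 10.96, 10.78 and 10.84, 10.33, 10.23 and 10.42, 10.16, 9.98 and 9.99 and 9.41, 9.40 and 9.57 in the groups as just listed. No 2 of these 4 groups overlapped, and the difference was -1.40 ± 0.07 (adjusted p = 4.97e-07). Wif1, a secreted inhibitor of Wnt ligands, fell by 1.71, against -0.84 and -1.04 with Tgfbr2 disruption and the Fbn1 allele alone. Ccdc85a fell by 1.83, against -0.78 and -1.05, and the orphan receptor gene Gpr165 fell by 1.69, against -1.08 and -1.18. Bmp3, a ligand that opposes other bone morphogenetic proteins, fell by 1.65, against -1.12 and -1.24, but was not called between mutant knockouts and mutant controls (adjusted p = 0.0679), whose arrays overlapped. Lgi1, a secreted synaptic protein, fell by 1.36, while neither its single differences, -0.72 and -0.74, nor those between both lesions and either one were called. Kcnj15, an inwardly rectifying potassium channel, stood nearer to the Fbn1 allele, with -1.67 for both lesions, -0.39 for Tgfbr2 disruption (not called) and -1.27 for the allele.

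**Figure D2:**
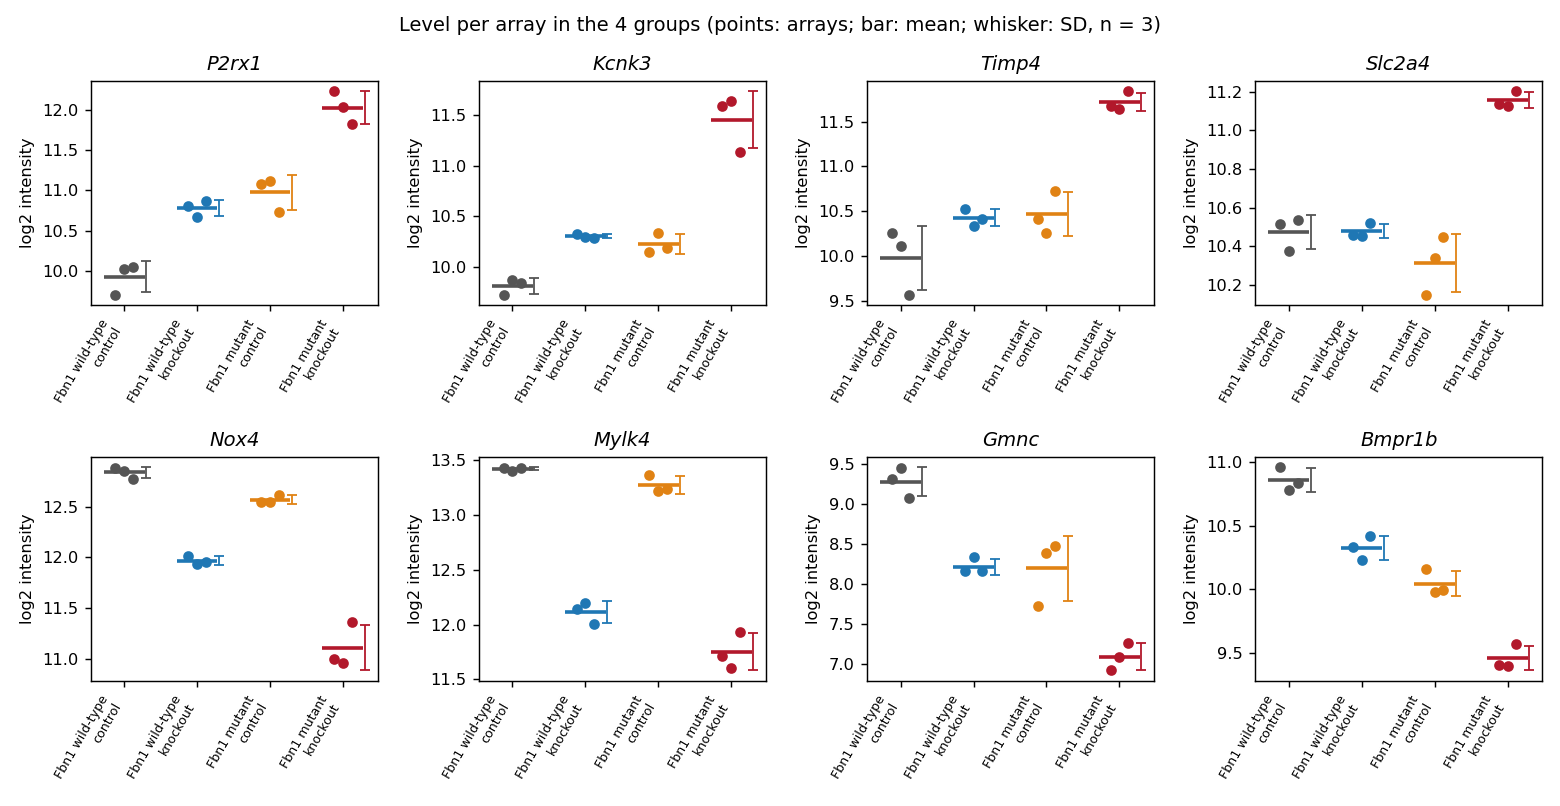
Log2 intensity (vertical axes, scaled per gene) of 8 genes on each array of the 4 groups, with the group mean as a bar and the SD of 3 arrays as a whisker. P2rx1, Kcnk3, Timp4 and Slc2a4 are highest in the mutant knockouts and Nox4, Mylk4, Gmnc and Bmpr1b lowest. In all of these but Timp4 and Slc2a4, every array of the wild-type knockouts and mutant controls lies between the other groups.

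Most genes of the TGF-beta pathway itself were not called, as among all genes, of which 11.4% rose and 11.9% fell. Of 17 ligands, receptors and latency proteins tested, 1 rose and 6 fell, with a median of -0.23 against 0.01 for all genes. Among the binding proteins that hold latent TGF-beta, Ltbp3 measured 13.04, 13.01 and 12.99 in wild-type controls and 12.49, 12.45 and 12.47 in mutant knockouts, without overlap, a fall of 0.54 ± 0.05 (adjusted p = 3.74e-05). Ltbp1 fell by 0.45 and Ltbp4 by 0.23. Itgb8, an integrin subunit that helps release the ligand, fell by 0.80 ± 0.08, against -0.23 (not called) with Tgfbr2 disruption and -0.46 with the Fbn1 allele. The type I receptor Tgfbr1 fell by 0.47, with -0.39 and -0.33 for the single lesions. The single member of the 17 called higher was the ligand Tgfb3, at 0.18, which was not called without any 1 of the 3 mutant knockouts or the wild-type controls numbered 1 and 2, at an adjusted p of up to 0.132.

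Of 15 SMADs and feedback regulators 6 fell and 0 rose by limma (3 stood higher at an unadjusted p under 0.05), with a median of 0.01. Among all genes 11.9% fell and 11.4% rose. The 3 largest falls were in negative regulators that TGF-beta itself induces. Pmepa1, which sequesters SMAD proteins, measured 13.75, 13.79 and 13.77 in wild-type controls, 13.33, 13.37 and 13.41 in the wild-type knockouts, 13.64, 13.68 and 13.58 in mutant controls and 13.12, 13.12 and 13.02 in mutant knockouts. The mutant knockouts lay below all other arrays, at a difference of -0.69 ± 0.05. The related Ldlrad4 fell by 0.77 and Skil, a SMAD corepressor, by 0.66, against -0.58 and -0.48 in wild-type knockouts. Of Smad2, Smad3, Smad4 and Smad7 none was called, with differences of 0.01, 0.19, -0.05 and 0.02.

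The 28 tested genes that TGF-beta is known to induce divided evenly, with 7 higher and 7 lower and a median of -0.07. All genes gave 11.4% higher and 11.9% lower. Nox4, a NADPH oxidase that makes hydrogen peroxide, measured 12.88, 12.85 and 12.78 in wild-type controls, 12.02, 11.93 and 11.96 in the wild-type knockouts, 12.54, 12.55 and 12.62 in mutant controls and 11.00, 10.96 and 11.36 in mutant knockouts. All 3 mutant knockouts lay below every other array, and the fall of 1.73 ± 0.09 (adjusted p = 4.97e-07) exceeded the sum of the single ones, -0.87 and -0.27 (the latter not called), by 0.59 ± 0.12 (adjusted p = 0.0348). That departure missed the threshold without any 1 of 11 of the 12 arrays, all but the mutant knockout numbered 3, at an adjusted p of up to 0.093. Ccn2, connective tissue growth factor, fell by 0.37, and Ptprz1, a receptor phosphatase, by 0.77. Others of the list rose: Ccn4, a matricellular protein of the same family as Ccn2, by 1.27 ± 0.11, Thbs1, which can activate latent TGF-beta, by 1.06 (adjusted p = 0.061 once the immediate early score is a covariate), and Tnc, tenascin-C, by 0.84. The single lesions differed in these. Thbs1 stood at 1.86 in wild-type knockouts and -0.44 (not called) in mutant controls, while Tnc stood at 0.38 (not called) and 1.49.

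Most contractile genes were not called, as was true of all genes, of which 11.4% rose and 11.9% fell. Of 35 tested, 4 rose and 6 fell, with a median of 0.00. Besides Mylk4, the falls included Npnt, the matrix ligand nephronectin, at -0.45, Myocd, the coactivator that drives smooth muscle genes, at -0.42 ± 0.06, and Cald1, caldesmon, at -0.31. Actg2, enteric smooth muscle actin, rose by 0.36 and Pln, phospholamban, by 0.94. Genes that set vascular tone moved in both directions, with 8 of 39 tested higher and 6 lower. Agtr1a, the angiotensin II receptor, measured 8.59, 8.53 and 8.69 in wild-type controls and 9.59, 9.70 and 9.37 in mutant knockouts, without overlap, a rise of 0.95 ± 0.08, and the adrenergic receptor Adra1b rose by 0.88. Rgs4, which shuts off G protein signals, fell by 1.22 ± 0.13, Htr1b, a serotonin receptor, fell by 1.23, and Ptgfr, the prostaglandin F receptor, by 0.57. Of 39 potassium and calcium channel genes 9 rose and 9 fell. Cacna1h, a T-type calcium channel, rose by 0.57 and Cacna2d1, an auxiliary calcium channel subunit, fell by 0.58. Without either of the mutant knockout and the wild-type control numbered 1, 5 channel genes fell in place of 9.

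Of 23 basement membrane genes tested 9 fell and 3 rose, with a median of -0.14, beside 11.9% of all genes lower and 11.4% higher. Col15a1, a collagen that links basement membranes to the fibres beneath, measured 12.79, 12.84 and 12.78 in wild-type controls, 12.23, 12.19 and 12.17 in the wild-type knockouts, 13.37, 13.28 and 13.03 in mutant controls and 11.79, 11.83 and 11.89 in mutant knockouts. The mutant controls were the highest group and the mutant knockouts the lowest, at -0.97 ± 0.07 from the wild-type controls (adjusted p = 5.32e-06). The collagen IV chains Col4a5 and Col4a6 fell by 0.46 and 0.74. Col4a5 had risen by 0.46 in mutant controls, which made its difference between mutant knockouts and mutant controls -0.92. Against the mutant controls 11 of the 23 genes were lower and 0 higher by limma (1 at an unadjusted p under 0.05), where 5.77% of all genes were lower and 7.66% higher (13.4% called in all, 2008 genes). That background of 2008 became 1160 and 1049 without the mutant knockouts numbered 1 and 2, and 1209 and 896 without the mutant controls numbered 1 and 2. The laminin chain Lamb1 rose by 0.30, and Lama3 by 0.32.

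Of 20 fibrillar and fibril-associated collagens 5 rose and 0 fell by limma (also 0 at an unadjusted p under 0.05), with a median of 0.11. Among all genes 11.4% rose and 11.9% fell. Col12a1, which coats collagen fibrils, rose by 1.13 ± 0.12, from 8.81, 8.81 and 9.18 to 10.15, 10.05 and 9.99 without overlap, and Col1a1 by 0.45. Col1a1 and Col3a1 stood at 0.68 and 0.56 in the mutant controls and at 0.45 and 0.15 (the latter not called) in the mutant knockouts, and both departed from the sum of the single differences, by -0.57 and -0.64 (adjusted p = 0.0155 and 0.012). Of 21 elastic fibre genes 4 rose and 5 fell, beside the same shares of all genes. Mfap2, a microfibril protein that binds fibrillin, rose by 0.69 ± 0.11, and Adamtsl2, which also binds fibrillin microfibrils, by 0.82. Mfap4 fell by 0.41 and Loxl3, a lysyl oxidase, by 0.42. Eln, elastin, rose in each single-lesion group, by 0.44 and 0.75, and stood at 0.26 (not called) with both. The number of elastic fibre genes that rose was 7 without the mutant knockout or the wild-type control numbered 3, and 3 fell in place of 5 without any 1 of 5 arrays, the mutant knockouts numbered 1 and 3, the wild-type control and the wild-type knockout numbered 1 and the mutant control numbered 2.

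Among 18 enzymes of collagen synthesis 4 rose and 7 fell. For these and the 2 lists that follow, the shares of all genes were 11.4% higher and 11.9% lower. Besides P4ha3, Cthrc1, a secreted protein of wound repair, rose by 1.02 ± 0.11, below its 1.81 in wild-type knockouts. P3h2, which hydroxylates collagen IV, fell by 1.08 ± 0.12, and the prolyl hydroxylase subunits P4ha1 and P4ha2 by 0.51 and 0.53. Of 41 matricellular and proteoglycan genes 8 rose and 11 fell. The leucine-rich proteoglycan Omd, osteomodulin, fell by 1.01, and the large proteoglycan Vcan, versican, by 0.76 ± 0.08, against -0.11 (not called) and -0.67 with Tgfbr2 disruption and the Fbn1 allele. Fmod, fibromodulin, rose by 0.56 and Sdc3, syndecan-3, by 0.72. Without either of the mutant knockout and the wild-type control numbered 1, 7 genes of this list fell. Of 46 proteases and inhibitors 14 rose and 5 fell, and the 14 became 7 without the mutant knockout numbered 1 or the wild-type control numbered 2 and 9 without the wild-type control numbered 1. Those that fell were 2 without the mutant knockout numbered 1 or the wild-type controls numbered 2 or 3, and 3 without the mutant knockout or the wild-type knockout numbered 2. Adamts12 rose by 0.96 ± 0.10, less than the 1.36 of mutant controls, and Serpina3n, a serine protease inhibitor, by 1.00 ± 0.13, less than the 1.71 of wild-type knockouts.

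**Figure D3:**
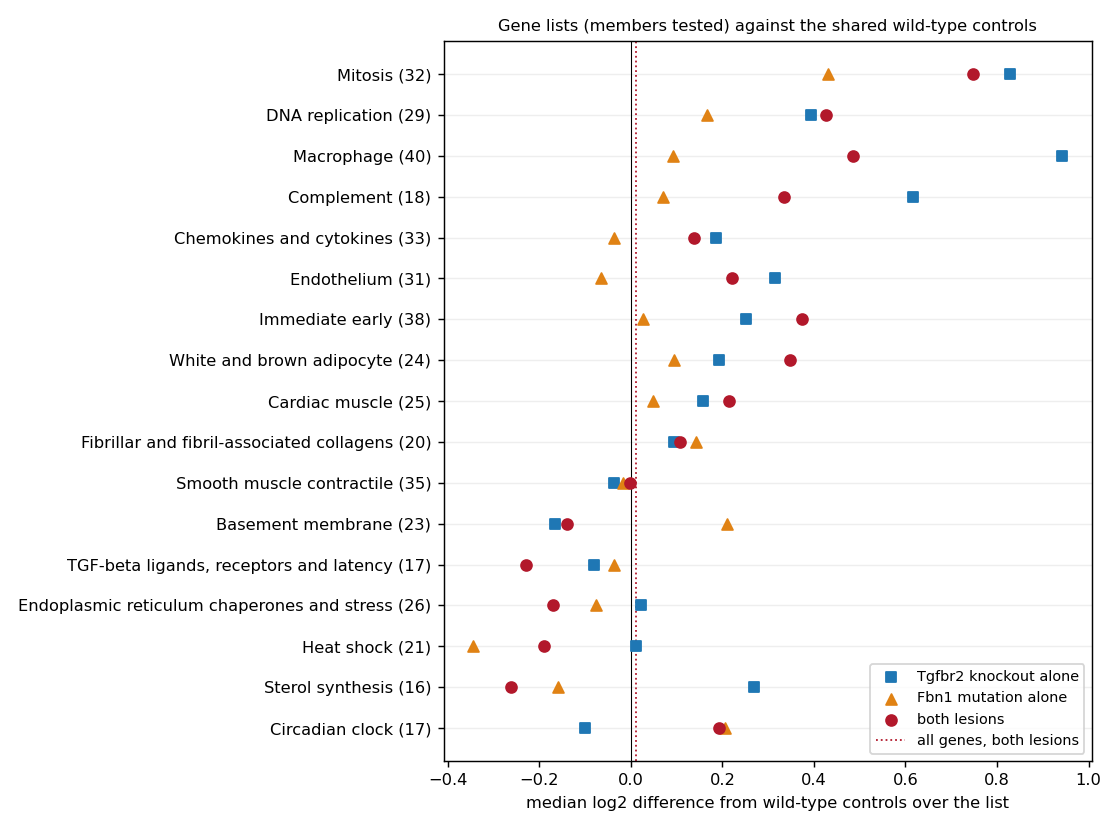
Median log2 difference from the shared wild-type controls (horizontal axis) over the tested members of 17 gene lists (rows, with their number), in wild-type knockouts (squares), mutant controls (triangles) and mutant knockouts (circles); the dotted line is the median of all genes in mutant knockouts, 0.01. The mitosis list stands at 0.75 with both lesions and the macrophage list at 0.49 with both against 0.94 with Tgfbr2 disruption alone, while heat shock genes lie at -0.19, 0.01 and -0.34 with both lesions, Tgfbr2 disruption and the Fbn1 allele.

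Most tested genes of cell division rose. Of 32 mitosis genes tested 31 rose and 1 fell, with a median of 0.75, and of 29 DNA replication genes 23 rose and 0 fell by limma (also 0 at an unadjusted p under 0.05), with a median of 0.43. Among all genes 11.4% rose and 11.9% fell. Probe sets were found for 42 mitosis and 31 DNA replication genes, and those not tested lay under the filter on dim genes. That filter uses the mean of all 12 arrays, so a dim gene could pass it through lesion-bearing groups where it is high. The shares that rose may therefore overstate those of the whole lists. Ccna2, cyclin A2, measured 7.76, 7.66 and 7.98 in wild-type controls, 9.57, 9.48 and 9.81 in the wild-type knockouts, 9.47, 9.09 and 8.89 in mutant controls and 9.78, 9.51 and 9.01 in mutant knockouts. The wild-type controls lay below all other arrays, and the difference of both lesions was 1.63 ± 0.18 (adjusted p = 7.51e-05). Ccnb2, cyclin B2, whose promoter is printed above, measured 7.90, 7.90 and 8.21 in wild-type controls and 9.69, 9.33 and 9.06 in mutant knockouts, a rise of 1.35 ± 0.14. The proliferation marker Mki67 rose by 1.32, the topoisomerase Top2a by 1.22, the spindle kinesin Kif11 by 0.95 and the centromeric histone Cenpa by 0.91. In DNA replication Chaf1b, a chromatin assembly factor, rose by 0.83, Uhrf1, which keeps DNA methylation through replication, by 0.75 and the helicase subunit Mcm5 by 0.62.

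In 9 of the 32 mitosis genes the difference with both lesions lay below the sum of the single differences, Anln and 8 that rose. Ccna2 stood at 1.81 in wild-type knockouts and 1.35 in mutant controls, so that the 1.63 of mutant knockouts lay 1.53 ± 0.26 below the sum (adjusted p = 0.012). Against the wild-type knockouts 0 mitosis genes were higher by limma (also 0 at an unadjusted p under 0.05) and 1 was lower, where 890 of all genes were called (5.96%), 418 higher (2.8%) and 472 lower (3.16%). These 890 became 382 without the mutant knockout numbered 1, and 457 and 498 without the wild-type knockouts numbered 1 and 3. At an unadjusted p under 0.05, 27 of the 32 lay below the sum. By the adjusted p, 161 of all genes (1.08%) departed downward and 60 (0.401%) upward, 221 in all (1.48%). The 221 became 142 and 128 without the mutant knockouts numbered 1 and 2, 118 without the mutant control numbered 2, and 107 and 109 without the wild-type knockouts numbered 1 and 3. The 9 ranged from 3 to 12 without 1 array and was 3 without the wild-type knockout numbered 3, 4 without the wild-type knockout numbered 1, the mutant control numbered 1 or the wild-type control numbered 3, and 5 without the mutant control or the wild-type control numbered 2. The exception in direction was Anln, anillin, a scaffold of the cleavage furrow that also binds actin. Its level was 11.13, 11.16 and 11.18 in wild-type controls, 10.99, 10.95 and 11.09 in the wild-type knockouts, 11.24, 11.03 and 11.10 in mutant controls and 10.38, 10.06 and 10.38 in mutant knockouts. The first 3 groups lay close together and the mutant knockouts lay below them all, at -0.88 ± 0.08 from the wild-type controls (adjusted p = 2.67e-05).

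Most macrophage genes rose, and 13 of 40 stayed below their level in the wild-type knockouts. Of the 40 tested 28 rose and 0 fell by limma (also 0 at an unadjusted p under 0.05), with a median of 0.49 against 0.94 in wild-type knockouts and 0.09 in mutant controls. Among all genes 11.4% rose and 11.9% fell. Adgre1, which encodes the surface antigen F4/80, measured 9.09, 9.23 and 9.31 in wild-type controls, 10.49, 10.31 and 10.50 in the wild-type knockouts, 9.37, 9.62 and 9.68 in mutant controls and 9.89, 9.98 and 9.89 in mutant knockouts. The mutant knockouts lay above the wild-type controls and below the wild-type knockouts without overlap, 0.71 ± 0.08 from the first and -0.52 ± 0.08 from the second (adjusted p = 1.12e-04 and 0.00376). Fcrls, an Fc receptor-like protein of macrophages, rose by 1.04 against 1.83, and Csf1r, the receptor of macrophage colony-stimulating factor, by 0.58 against 0.98. Over all genes 3.16% were lower and 2.8% higher than in wild-type knockouts. Among the 40, 13 were lower and 0 higher by limma (also 0 at an unadjusted p under 0.05). Without 1 array that number was 7 to 15, at 7 without the mutant knockout numbered 1 or the wild-type knockout numbered 3, and 8 without the mutant knockout numbered 2 or the wild-type knockout numbered 1. Compared with mutant controls 18 were higher, as were 7.66% of all genes. The 18 fell to 11 without either of the mutant controls numbered 1 and 2 and to 10 without the mutant knockout numbered 2.

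Of 18 complement genes 11 rose and 1 fell, beside 11.4% of all genes higher and 11.9% lower. The 11 became 6 without the wild-type controls numbered 1 or 2 and 7 without the mutant knockout numbered 2. C1qa, a subunit of the first complement component, rose by 0.68 ± 0.10 against 1.08 in wild-type knockouts, and C3ar1, the receptor of complement fragment C3a, by 0.76. The member that fell was C7, a part of the membrane attack complex, at -1.10 ± 0.21. Of 33 chemokine and cytokine genes 11 rose and 0 fell by limma (1 lower at an unadjusted p under 0.05). Cx3cl1, the membrane-bound chemokine fractalkine, rose by 0.84 ± 0.08, Ccl2, which draws monocytes, by 0.58 against 0.98 in wild-type knockouts, and Cxcl12 by 0.36. Ccl8, another monocyte chemokine, stood at 1.87 in wild-type knockouts, 0.16 (not called) in mutant controls and 0.18 (not called) in mutant knockouts. It passed the filter on dim genes only through the wild-type knockouts. None of 10 lymphocyte genes was called by limma, and 0 had an unadjusted p under 0.05.

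**Figure D4:**
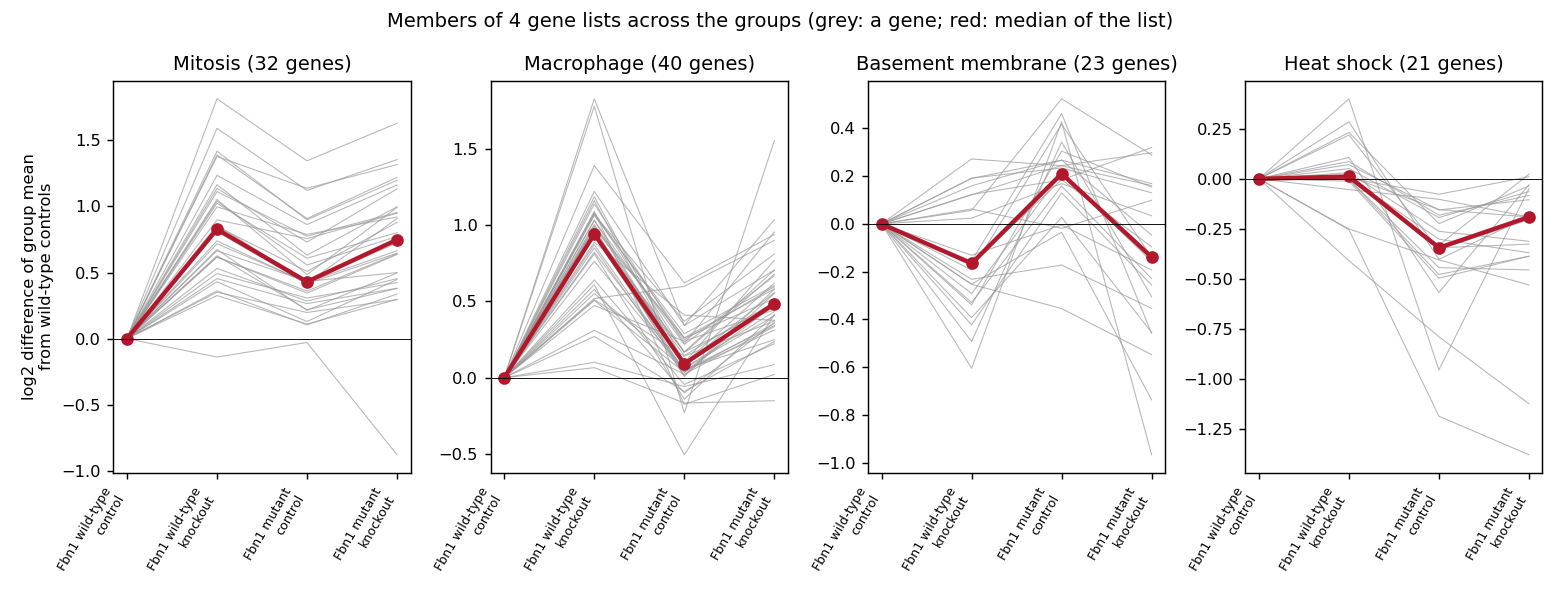
Difference of each group mean from the wild-type controls in log2 units (vertical axes) for members of the mitosis (32 genes), macrophage (40), basement membrane (23) and heat shock (21) lists across the 4 groups; grey lines are genes and the red line is the median. Mitosis genes lie above the controls in all 3 lesion-bearing groups but for Anln, macrophage medians peak at 0.94 in wild-type knockouts, basement membrane medians peak at 0.21 in mutant controls, and heat shock medians fall in both mutant groups.

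Of 21 heat shock genes 10 fell and 0 rose by limma (also 0 at an unadjusted p under 0.05), with medians of -0.19 with both lesions, 0.01 in wild-type knockouts and -0.34 in mutant controls, where 13 fell. Over all genes 11.4% rose and 11.9% fell with both lesions, and 3.33% fell in mutant controls. Hsph1, a chaperone of the HSP110 family, measured 11.42, 11.53 and 11.54 in wild-type controls, 11.30, 11.21 and 11.22 in the wild-type knockouts, 10.10, 10.38 and 10.45 in mutant controls and 9.98, 10.00 and 10.38 in mutant knockouts. Both mutant groups lay below both wild-type groups, with -1.38 ± 0.11 for both lesions. Its relative Hspa4l fell by 1.12 and Hsp90aa1, an inducible form of HSP90, by 0.39. Against the wild-type knockouts 12 of the 21 were lower, or 6 without the mutant knockout numbered 1, where 3.16% of all genes were lower. Of 26 chaperones and stress genes of the endoplasmic reticulum 10 fell and 0 rose by limma (also 0 at an unadjusted p under 0.05), with a median of -0.17. Hspa5, the main chaperone there, fell by 0.48 ± 0.07 and Hyou1 by 0.52.

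Of 17 clock genes 6 rose and 2 fell, and in mutant controls 7 rose and 2 fell. Over all genes 11.4% rose and 11.9% fell with both lesions, and 3.17% rose and 3.33% fell in mutant controls. Dbp, an output gene of the clock, measured 11.65, 11.80 and 11.58 in wild-type controls, 11.75, 11.87 and 11.37 in the wild-type knockouts, 12.66, 12.64 and 12.48 in mutant controls and 12.79, 12.81 and 12.36 in mutant knockouts. Both mutant groups lay high and both wild-type groups low, with a difference of 0.98 ± 0.13. Ciart, a repressor of the clock, rose by 1.76 ± 0.35 with both lesions and 1.76 in mutant controls, and the repressor Nr1d1 by 0.97 and 1.11. Clock, the activator, fell by 0.47. The labels used here give no time of day, whose part in these values was not tested. Sterol synthesis genes stood apart between the knockout groups. Among 16 tested 11 were lower in mutant knockouts than in wild-type knockouts, beside 3.16% of all genes. Their median was -0.26 with both lesions, 0.27 in wild-type knockouts and -0.16 in mutant controls. Against wild-type controls 5 fell, but 2 or 3 without any 1 of 4 arrays, the wild-type controls numbered 1 and 2 and the mutant knockouts numbered 1 and 3. Lss, lanosterol synthase, fell by 0.43 ± 0.08 and Srebf2, the regulator of the pathway, by 0.30.

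Immediate early genes, which respond within minutes to stimulation of cells, had a mean level above that of every wild-type control on 2 of the 3 mutant knockouts. The mean level of the 38 tested, relative to all 12 arrays, was -0.17, 0.03 and -0.36 in wild-type controls and 0.53, -0.08 and 0.30 in mutant knockouts. Of these genes 15 rose and 1 fell, beside 11.4% of all genes higher and 11.9% lower. The 15 became 8 or 9 without the wild-type controls numbered 1 or 3 or the mutant knockouts numbered 1 or 3. Nr4a3, an orphan nuclear receptor, rose by 1.14 ± 0.16 and Myc by 0.95 ± 0.16. Nr4a1 measured 11.03, 11.72 and 10.59 in wild-type controls and 13.66, 12.33 and 12.23 in mutant knockouts, without overlap, a rise of 1.62 ± 0.41 (limma adjusted p = 0.0136). Without the mutant knockout numbered 1 the difference was 1.16 (adjusted p = 0.0541). With the score of the adipocyte list in the fit it was 1.59 (adjusted p = 0.0616), and with that of the immediate early list 0.63 (adjusted p = 0.15). The latter score is a mean over genes that include Nr4a1, so that fit partly adjusts the gene for its own level. Ciart also missed the threshold with the immediate early score, at an adjusted p of 0.0504. With the adipocyte and immediate early scores in the fit 1997 and 2307 genes were called between mutant knockouts and wild-type controls in place of 3479.

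A gene was called beyond all other groups where the mutant knockouts differed in 1 direction from each of the wild-type controls, wild-type knockouts and mutant controls, by the highest of the 3 p-values adjusted over all genes. Of 14944 genes 64 met this (0.428%), 28 higher (0.187%) and 36 lower (0.241%). By arrays alone, 579 genes (3.87%) had all 3 mutant knockouts above the other 9 arrays and 464 (3.1%) below. The 64 became 26 without the mutant knockout numbered 1, 38 without that numbered 2, 38 without the mutant control numbered 2, and 37, 34 and 40 without the wild-type knockouts numbered 1, 2 and 3. With the immediate early score in the fit 29 were called, and 42 with the adipocyte score.

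Besides P2rx1, Timp4 and Kcnk3, the higher genes included Slc2a4, which encodes the insulin-responsive glucose transporter GLUT4. It measured 10.51, 10.38 and 10.54 in wild-type controls, 10.46, 10.45 and 10.52 in the wild-type knockouts, 10.15, 10.34 and 10.45 in mutant controls and 11.14, 11.13 and 11.20 in mutant knockouts. The mutant knockouts stood above all other arrays, which lay between 10.15 and 10.54. Their difference from the sum of the single ones was 0.84 ± 0.10 (adjusted p = 0.00216). Ppargc1a, a coactivator of mitochondrial biogenesis, rose by 0.94 ± 0.10 from the wild-type controls and lay 0.70 and 0.82 above the wild-type knockouts and mutant controls. That call was lost without the mutant knockout numbered 1 and with the immediate early score, at an adjusted p of up to 0.066. Nrgn, neurogranin, a calmodulin-binding protein, rose by 1.17 ± 0.08 from the wild-type controls. The gene Cstad rose by 0.89. Elobl rose by 0.98 ± 0.14, to a mean of 8.04. Its means in wild-type controls, wild-type knockouts and mutant controls, 7.06, 7.14 and 7.19, lay under the filter level of 7.31. It was thus tested only because of the mutant knockouts. Elobl kept the call in 15 of 22 settings and lost it without any 1 of 5 arrays, at an adjusted p of up to 0.259. Kcnk3, P2rx1, Nrgn, Slc2a4 and Cstad kept the call under all 23 alternative settings, and Timp4 lost it with the immediate early score, at an adjusted p of 0.0622.

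Several of these higher genes are also expressed in heart muscle, skeletal muscle or fat, Slc2a4 and Ppargc1a in all 3, so the markers of each tissue are given beside them. Of 25 cardiac muscle genes 10 rose and 1 fell, or 6 rose without the wild-type control numbered 3. All genes gave 11.4% higher and 11.9% lower. Against mutant controls 5 of the 25 were higher and 1 lower, where 7.66% of all genes were higher and 5.77% lower. Against wild-type knockouts 1 was higher and 2 lower, where 2.8% of all genes were higher and 3.16% lower. The sums of 5 defining markers, in which Tnnt2 weighs most, were 6697 to 8038 in wild-type controls, 10708 to 12306 in wild-type knockouts, 5133 to 8316 in mutant controls and 11564 to 13734 in mutant knockouts. The sum of the skeletal muscle markers, given above, was highest in mutant knockouts without overlap, and of 18 genes of the skeletal muscle list 2 rose and 1 fell. Compared with mutant controls 7 of the 18 were higher and 1 lower. Compared with wild-type knockouts 2 were higher and 0 lower by limma (also 0 at an unadjusted p under 0.05). Of 24 white and brown adipocyte genes 7 rose and 1 fell, among the 7 Cidea, a lipid droplet protein, at 1.26 ± 0.16, and Pparg at 0.86. Compared with mutant controls 6 of the 24 were higher and 0 lower by limma (1 lower at an unadjusted p under 0.05). Compared with wild-type knockouts 2 were higher and 1 lower. None of the 4 defining adipocyte markers tested was called by limma. With 1 dimmer marker, their sums overlapped, at 1839 to 2647 in wild-type controls and 1906 to 3365 in mutant knockouts. The mean level of this list was -0.30, -0.20 and -0.03 in wild-type controls and 0.44, -0.05 and 0.32 in mutant knockouts. The part of cardiac muscle, skeletal muscle and fat in these results was not tested beyond these values and the fit with the adipocyte score.

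The lower genes beyond all groups included Nox4, Gmnc, Ccdc85a and Anln, described above, and Rab9b, a small GTPase of late endosomes. Rab9b measured 9.95, 9.90 and 9.80 in wild-type controls, 9.52, 9.64 and 9.51 in the wild-type knockouts, 9.62, 9.72 and 9.66 in mutant controls and 8.48, 8.54 and 8.91 in mutant knockouts. Its mutant knockouts lay below all other arrays, by 1.24 ± 0.09 from the wild-type controls and 0.92 and 1.03 from the others. Pla2g4a, the phospholipase that frees arachidonic acid, stood at -0.74 ± 0.10 from the wild-type controls and -0.84 and -0.60 from the wild-type knockouts and mutant controls. With both lesions Tmem229b fell by 1.53 and Kctd16 fell by 1.44, beyond the level of either single lesion. The matrix genes Col4a5 and Col4a6, the receptor Bmpr1b and the regulator Pmepa1 were also among the 36. Rab9b, Nox4 and Anln kept the call under all 23 settings. Gmnc lost it without the mutant knockout numbered 1, the mutant control numbered 2 or the wild-type knockout numbered 2, Pla2g4a and Tmem229b without the mutant knockouts numbered 1 or 2, Pla2g4a also without the mutant controls numbered 2 or 3, and Kctd16 without any 1 of 6 arrays, at adjusted p-values of up to 0.101 for Gmnc, 0.145 for Pla2g4a, 0.211 for Tmem229b and 0.186 for Kctd16. With the immediate early score Ccdc85a, Tmem229b and Kctd16 also lost it, Ccdc85a at an adjusted p of 0.0619.

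**Figure D5:**
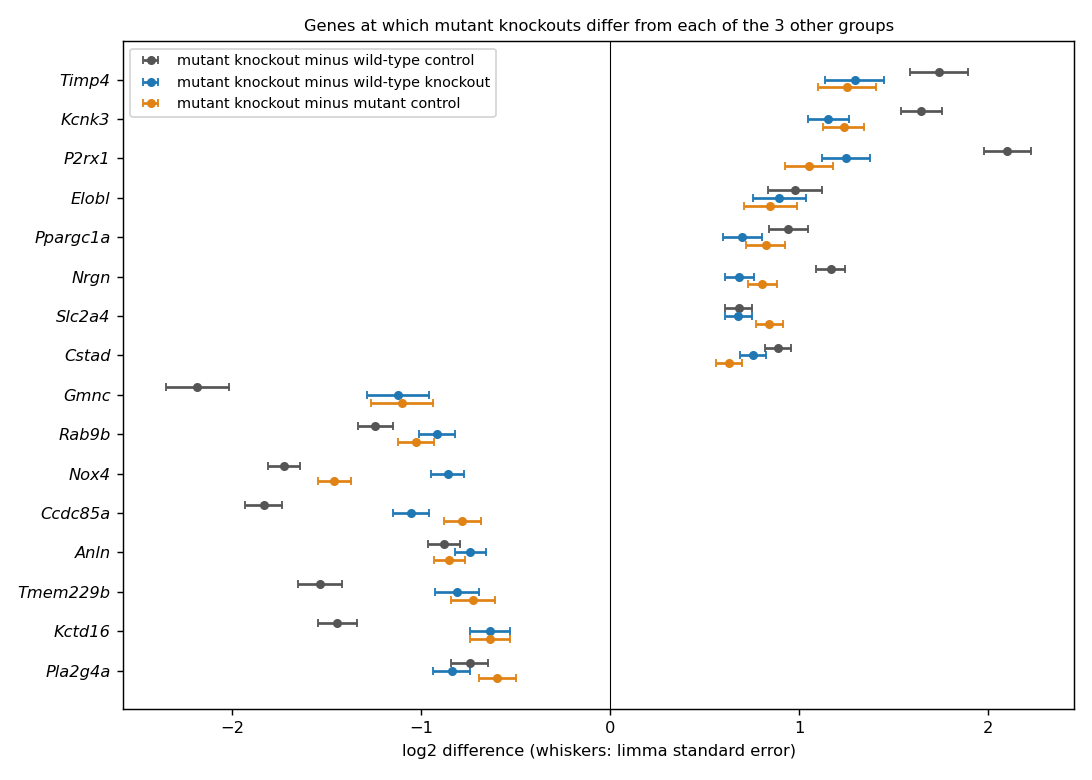
Log2 difference of the mutant knockouts (horizontal axis, with the limma standard error as whisker) from the wild-type controls (grey), wild-type knockouts (blue) and mutant controls (orange) for the 8 higher and 8 lower genes of this kind with the largest smallest difference. All 3 differences of each gene lie on 1 side of 0. Elobl passed the filter on dim genes only through the mutant knockouts. For every gene shown but Slc2a4 and Pla2g4a the distance from the wild-type controls is larger than from either single-lesion group.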

How the data were processed

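RNA of the ascending aorta was labelled with biotin and hybridised to 12 whole-transcript arrays of 1 colour, 3 per group. The submitters' processing notes name RMA and Partek 6.4. What the authors deposited, for 35556 probe sets, is intensity on a linear scale, with array maxima of 30090 to 32420, and log2 was taken before all else. No 2 arrays were identical, and there were 0 columns of other samples. Scans and detection calls were not used here, and precision is limited by how many arrays there are.

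The platform annotation gives 1 symbol to 21789 probe sets, several to 1621 and none to 12146, and only the first were used. For each of 19938 genes the probe set with the highest mean was kept. Of the probe sets with 1 symbol 21698 were matched to RefSeq by Entrez ID, with 0 symbols updated. Genes with a mean under the 25th percentile of these probe sets (7.31 on the log2 scale, intensity 159) were left out, and 14944 were tested.

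One coefficient per group was fitted to the 12 arrays with limma 3.58.1 in R 4.3.3 (lmFit, eBayes without trend, 8 residual degrees of freedom and 4.54 from the prior). Tests were two-sided. The departure from the sum is the interaction contrast. The procedure was checked on simulated data. The 41 lists held 1230 entries, 1015 of them tested, from 943 genes. The arrays, members and lists were chosen with earlier results of these data known. Promoters were read from RefSeq tables for GRCm38.p6.

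Genes are named by a rule. It takes, in each direction, the 15 largest called differences without overlap between mutant knockouts and wild-type controls, 8 genes beyond all groups and 6 departures, besides Tgfbr2, up to 6 members of smallest p per list and members that define a cell type. Predicted genes, receptors of smell and immunoglobulin segments were left out, as were symbols that begin with Mir or Snor. Ccn2, Col3a1, Csf1r, Eln, Fmod, Hsp90aa1, Kif11, Ptgfr, Ptprz1, Smad2, Smad3, Smad4, Smad7, Tgfb3, Thbs1 and Top2a were chosen after their values were seen.

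Alternatives were other filters, scalings, probe set rules and variance models, array weights, only the groups compared, a block for the title number, 2 list scores as covariates, and leaving out each array.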

Additional observations from a re-analysis of the deposited data

Results flagged for a closer look

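The difference of both lesions departed from the sum of the single differences in 221 of 14944 genes (1.48%) by limma's interaction test, which also tests whether the effect of Tgfbr2 disruption differs between the Fbn1 genotypes. The 6 largest departures in each direction follow, each called by that test.

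Above the sum stood Slc2a4, with a departure of 0.84 ± 0.10 (SE; adjusted p = 0.00216), from 0.00 and -0.16 with the single lesions to 0.68 with both. Kcnc4, a voltage-gated potassium channel, departed by 0.84 ± 0.11 and Gstm7, a glutathione transferase, by 0.70 ± 0.10. These 3 departures were called in all 22 alternative fits. Rasl10b departed by 0.87, the small RNA Scarna17 by 0.86 and Kcnk3 by 0.74 ± 0.15. Rasl10b lost the call with the title number as a block, with the immediate early score in the fit, and without any 1 of the 3 mutant controls, the 3 wild-type knockouts or the wild-type controls numbered 1 and 2. Scarna17 lost it without any 1 of the 3 mutant knockouts, the 3 wild-type knockouts or the wild-type controls numbered 2 and 3, and Kcnk3 without any 1 of 9 arrays, all but the mutant knockout numbered 3, the wild-type control numbered 1 and the mutant control numbered 2.

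Below the sum stood Ccl8, a monocyte chemokine, with a departure of -1.85 ± 0.22 (adjusted p = 0.00216). It measured 6.67, 6.86 and 7.05 in the wild-type controls, 8.58, 8.44 and 9.16 in the wild-type knockouts, 7.03, 7.01 and 7.02 in mutant controls and 6.86, 7.07 and 7.19 in mutant knockouts, so that the wild-type knockouts stood alone. The means of wild-type controls, mutant controls and mutant knockouts, 6.86, 7.02 and 7.04, lay under the filter level of 7.31. Ccl8 was thus tested only because of the wild-type knockouts, and its departure rests on that group. Glp1r, the receptor of glucagon-like peptide 1, departed by -1.22 ± 0.16, at 1.66 in wild-type knockouts, -0.50 in mutant controls and -0.06 in mutant knockouts. Timp1, an inhibitor of metalloproteinases, departed by -1.26 ± 0.18, at 1.54, 0.29 and 0.57 in the same order. The cyclins Ccna2 and Ccnb2 departed by -1.53 and -1.36, and D17H6S56E-5 by -1.40, each raised in all 3 lesion-bearing groups. These 6 departures were called in every alternative fit that tested them.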

How the results depend on the processing

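The direction and call were the same as reported for 187 of 236 called genes among 273 followed through every alternative, and none of them reversed. The number of genes called between mutant knockouts and wild-type controls, 3479, was within 1.5 times that under 9 of 11 alternatives beside leaving out arrays, became 1997 with the adipocyte score and 2307 with the immediate early score in the fit, and was 2299 to 3503 without 1 array. With array weights 1687 genes were called against wild-type knockouts in place of 890, 3687 against mutant controls in place of 2008, 1568 between mutant controls and wild-type controls in place of 970, 469 departures in place of 221 and 127 genes beyond all groups in place of 64. Fitting only the groups compared gave 1261 against mutant controls, 480 between mutant controls and wild-type controls and 27 beyond all groups. With the adipocyte score 860 were called against mutant controls and 42 beyond all groups, and with the immediate early score 677 and 29. Without 1 array the counts were 382 to 1019 against wild-type knockouts, 896 to 2146 against mutant controls, 1836 to 2992 between wild-type knockouts and wild-type controls, 349 to 1073 between mutant controls and wild-type controls, 107 to 202 departures and 26 to 65 beyond all groups. The cause of these changes was not tested. Fewer genes tested gave 9 mitosis genes higher with the filter at the median.

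Centring each array on its median left 31.1% of calls higher in place of 48.9%, leaving out the mutant knockout numbered 3 left 40.6% higher and array weights 43.9%. Of 776 alternative values of list medians 752 moved by less than the spread between arrays and 24 by more, and the lymphocyte, neutrophil and mast cell, and erythroid lists had no member left with the filter at the median. Over all probe sets with a symbol, the number in the titles did not consistently pair the arrays. In Ciart and Dbp, however, the array numbered 3 was the lowest of each group, and the cause of this was not tested. The correlation of deviations from group means was between -0.159 and 0.154 for same-numbered arrays and between -0.123 and 0.175 for others, and 5 of 12 arrays correlated best with their own number. With that number as a block (replicate block) 3239 genes were called, 1585 higher and 1654 lower. With 3 arrays a group, the median standard error was 0.07 and a difference of that size was not detectable, and detection above background was not analysed here.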

Other observations

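Further lists give the state of other pathways in mutant knockouts against wild-type controls, beside the 11.4% of all genes higher and 11.9% lower. Of 17 genes of Notch signalling, by which neighbouring cells set the fate of arterial smooth muscle, 7 rose and 2 fell, with a median of 0.23. Notch3, the receptor of arterial smooth muscle, measured 10.37, 10.58 and 10.50 in wild-type controls, 10.63, 10.70 and 10.49 in the wild-type knockouts, 11.19, 10.93 and 11.01 in mutant controls and 11.39, 11.27 and 11.40 in mutant knockouts. Only the mutant knockouts and mutant controls stood above the wild-type controls throughout, with a difference of 0.87 ± 0.08 (SE; limma adjusted p = 1.87e-05) for both lesions. The Notch target Heyl instead fell by 0.67 ± 0.08, at -0.85 in wild-type knockouts and -0.06 in mutant controls, while the endothelial receptor Notch4 rose by 0.35. Of 26 genes of bone morphogenetic protein signalling 7 rose and 7 fell, and 3 rose without the mutant knockout numbered 1. Id4, an inhibitor of helix-loop-helix factors, measured 11.41, 11.40 and 11.19 in wild-type controls and 12.16, 11.98 and 11.96 in mutant knockouts, at 11.41, 11.36 and 11.22 and 11.47, 11.44 and 11.38 with Tgfbr2 disruption and the Fbn1 allele alone. Its rise was 0.70 ± 0.08, against -0.01 and 0.09 in the single-lesion groups. The antagonists Fstl3 and Chrd fell by 0.74 and 0.47.

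Of 16 genes of the insulin-like growth factor system 5 rose and 3 fell. The ligand Igf1 measured 11.04, 10.78 and 11.34 in wild-type controls, 12.25, 12.22 and 12.50 in the wild-type knockouts, 10.88, 11.00 and 10.79 in mutant controls and 11.90, 12.11 and 11.87 in mutant knockouts, so that both knockout groups stood above both control groups. Its rise was 0.91 ± 0.12, and Pappa, a protease that frees the ligand from its binding proteins, rose by 0.67. Of 25 genes induced by interferon 7 rose and 0 fell by limma (also 0 at an unadjusted p under 0.05), with medians of 0.35 in mutant knockouts, 0.36 in wild-type knockouts and 0.00 in mutant controls. The 7 became 4 without the mutant knockout numbered 2 or the wild-type control numbered 2 and 11 without the wild-type knockout numbered 1. Ifitm3, which blocks virus entry, rose by 0.59 ± 0.10 and the GTPase Irgm1 by 0.51. The endothelium list had 11 of 31 higher and 1 lower, or 6 and 7 higher without the mutant knockout numbered 1 and the wild-type control numbered 2, with Plvap of fenestrated vessels at 0.64 and the transcription factor Erg at -0.36. Of 26 genes of cartilage, bone and mineralization 9 fell and 3 rose, among them Tnfrsf11b, osteoprotegerin, at 0.55 against 1.17 in wild-type knockouts and Sost, sclerostin, at -0.46. Of 39 subunits of the mitochondrial respiratory chain 6 rose and 0 fell by limma (also 0 at an unadjusted p under 0.05), with a median of 0.11.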
